A study of Solanum lycopersicum and Solanum pennellii and Solanum pimpinellifolium with 52 samples.

Results

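The Rubisco small subunit genes of tomato were followed through 4 gene models, Solyc02g085950, Solyc03g034220, Solyc02g063150 and Solyc03g034200, picked by their IDs out of the 28298 models of the deposited expression table. All 4 passed the filter on low values in both experiments, but Solyc03g034200 passed it only through species other than S. pennellii, where it reached 1 RPKM in 0 of 7 seedling and 0 of 12 factorial libraries. It was therefore bound to differ wherever S. pennellii was compared, and no count or median that includes it there is evidence on the family. Rubisco is the enzyme that fixes carbon dioxide in photosynthesis. Its large subunit is encoded in the chloroplast, and its small subunit is encoded by a family of nuclear genes whose protein is imported into the chloroplast. Messages of this family are among the most abundant in green plant tissue, and in tomato the copies are known to be strong in leaves and weak in roots and to contribute unequally from organ to organ.

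The study set wild relatives beside cultivated tomato. Seedlings from plates under standard light gave 7 libraries each of Solanum pimpinellifolium LA1589, S. habrochaites LA1777, S. pennellii LA716 and the cultivated S. lycopersicum LA3475, with RNA from a Qiagen kit. A factorial of 24 libraries took S. pennellii LA716 and S. lycopersicum LA3475, 6 tissues (seedling, leaf, vegetative meristem, stem, inflorescence and root) and 2 light treatments, with Trizol RNA and 1 library per combination. The R:FR value, red over far-red light, was 0.48 in artificial shade and 3.1 in simulated sun, both at about 95 µE. Each species was a single accession, plant ages were not given, and nothing says whether libraries came from separate plants, so p-values measure the spread of libraries, and that spread may be technical.

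Levels were given as RPKM, which is reads scaled by library total and model length. Library totals lay between 1477052 and 5556059 reads, with a median of 2309105. The 4 models took 2.52% to 8.49% of all reads in the standard-light seedling libraries, and 0.0243% to 6.33% in the factorial. How reads that match several copies were counted, and against which sequence, is not given in the sources used here, so the split of reads between near-identical copies is uncertain. Whether reads of the wild species match these models as well as those of cultivated tomato was not tested. In bulk tissue, fewer cells that carry a message and less message per cell cannot be told apart.

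The lengths implied by the table separated the models. Solyc02g063150 had 546 bases (182 codons) and Solyc03g034220 had 543 bases (181 codons). Solyc02g085950 had only 217 bases, which is not a multiple of 3, and 95.5% of all models were at least as long. A short model collects fewer reads of a message and RPKM divides by the length, so neither reads nor RPKM is free of it. The order of Solyc02g085950 among the copies depends on which is used, and its shares are given in both. Solyc03g034200 had 2124 bases (708 codons), and only 10.03% of models were at least as long. RefSeq's tomato gene table lists 4 small subunit genes, 3 on chromosome 2 and 1 on chromosome 3, while by the chromosome in their IDs the models are 2 on each. That table could not be joined to these IDs, so the summed level is that of these 4 models and may leave out a copy.

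Solyc03g034200 did not follow the other copies. Over the 24 factorial libraries the log2(RPKM + 1) values of the 3 other copies correlated with each other at a Pearson r of 0.973 to 0.985. Those of Solyc03g034200 correlated with them at −0.12 to −0.21. These are descriptions over libraries that share tissues, and Solyc03g034200 was nearly unread in those of S. pennellii. Its r over both species was therefore bound to be low and does not show its pattern over tissues. In S. lycopersicum it had 64.5 and 67.0 RPKM in shaded and sunlit root, against 31.9 and 32.2 RPKM in shaded and sunlit leaf. This goes against a label of leaf-type small subunit gene, so it is called by its ID, and its share of the family is given only for completeness.

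Seedling libraries also differed by run block. The number ranges of the run records in the labels split them into blocks of 14, 12 and 2 libraries, and the labels do not say what a block is. Solyc02g085950 had 109706 to 144023 RPKM in the block 2 libraries of S. lycopersicum, against 52342 to 59941 RPKM in its block 1 libraries. Differences were taken on log2(RPKM + 1) with limma, a linear model fitted over all genes, and p-values were adjusted over all genes by the Benjamini-Hochberg method. Additive over species, block 2 was higher than block 1 by 1.15 ± 0.10 on the log2 scale for Solyc02g085950 (SE; adjusted p = 1.4e-09), by 0.69 ± 0.07 for Solyc02g063150 (4.7e-09) and by 0.51 ± 0.06 for Solyc03g034220 (5.8e-08), and it was lower for Solyc03g034200, at −0.28 ± 0.07 (0.0025). A call needs a log2 difference of 1 or more in either direction with its adjusted p below 0.05. Of the 4 models 1 met this, Solyc02g085950, in a contrast where 7.92% of all genes were called and the median of all genes was −0.27. Within each of the 4 species, every block 2 library had more Solyc02g085950 and more Solyc02g063150 than every block 1 library. Each species has libraries in blocks 1 and 2, so seedling comparisons are also given within blocks; block 3 held S. habrochaites alone.

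In standard-light seedlings the small subunit genes headed the table. Solyc02g085950 was first of all models by RPKM in 28 of 28 libraries and Solyc03g034220 was second in 28 of 28, while Solyc02g063150 ranked between 3 and 12. Summed over the 4 models, the family had 118225 ± 42933 RPKM for S. pimpinellifolium, 181968 ± 60265 for S. habrochaites, 115462 ± 48479 for S. pennellii and 130887 ± 43434 for S. lycopersicum (SD, n = 7 each). These ranges overlapped between all species when blocks were pooled. Within block 1 S. habrochaites had 107571 to 144336 RPKM, S. pimpinellifolium had 80683 to 98680 and S. pennellii had 63340 to 103462, against 80508 to 90970 RPKM in S. lycopersicum. Within block 2 S. habrochaites had 241117 to 260103 RPKM in 2 libraries, S. pimpinellifolium had 116233 to 195274 and S. pennellii had 137737 to 185872, against 150727 to 191334 RPKM in S. lycopersicum. In both blocks S. habrochaites lay above all libraries of the other 3 species, which overlapped each other.

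**Figure D1:**
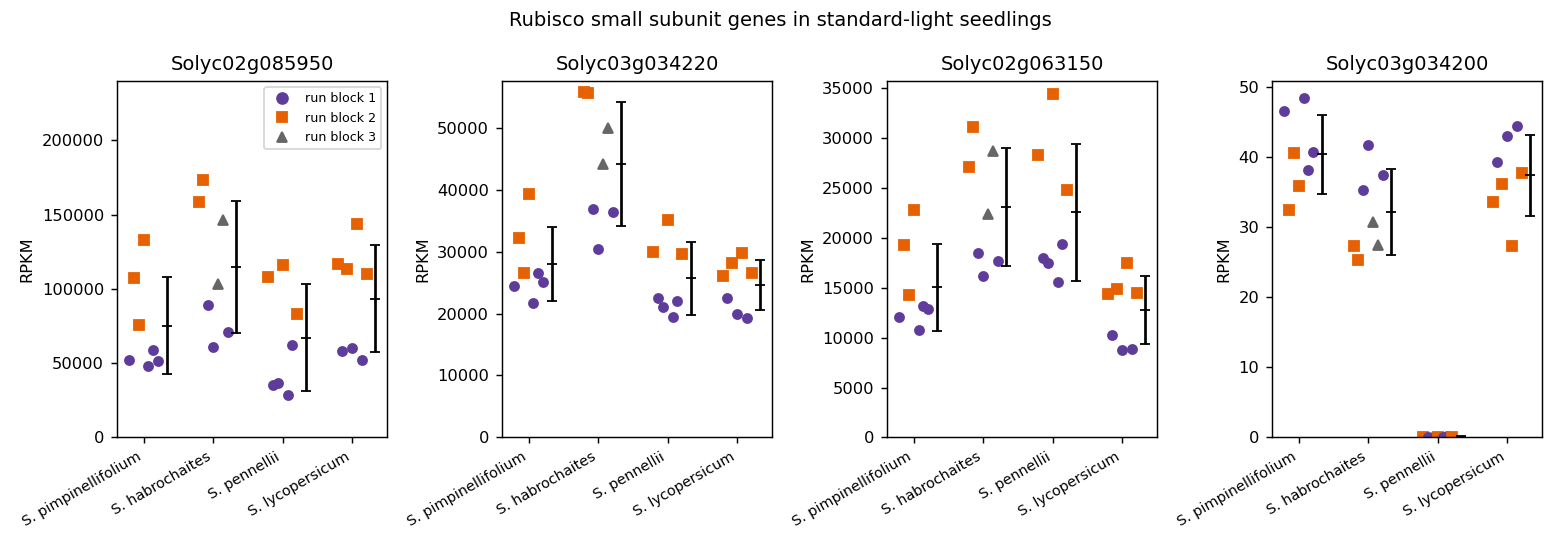
Level of each model (RPKM, linear axes that differ between panels) in the 28 standard-light seedling libraries, 7 per species; points are libraries, marked by run block, and bars are the mean and SD. Solyc03g034220 in S. habrochaites (30402 to 55749 RPKM) lies above all 7 S. lycopersicum libraries, and Solyc03g034200 lies near 0 in S. pennellii.

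Solyc03g034220 was high in S. habrochaites. It had 30402, 44124 and 55749 RPKM (lowest, median and highest) in S. habrochaites, against 19256, 26085 and 29810 RPKM in S. lycopersicum. Every S. habrochaites library was above every S. lycopersicum library. The difference was 0.83 ± 0.15 (log2, SE; adjusted p = 1.1e-04, limma), a 1.80-fold ratio of means, and it was 0.75 in block 1 and 1.01 in block 2. It fell short of the log2 limit of 1 over all libraries and passed it within block 2. S. pimpinellifolium had 21662, 26495 and 39392 RPKM and S. pennellii had 19429, 22468 and 35176 RPKM, and both overlapped S. lycopersicum (log2 0.18, adjusted p = 0.52, and 0.05, adjusted p = 0.83). For S. pimpinellifolium, 8 alternative limma fits gave differences up to 0.25 and adjusted p down to 0.020, with 0 called.

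Solyc02g063150 was high in both S. habrochaites and S. pennellii. S. habrochaites had 16146, 22401 and 31125 RPKM and S. pennellii had 15591, 19344 and 34455 RPKM, against 8781, 14359 and 17473 RPKM in S. lycopersicum. Over all run blocks the ranges overlapped, and the highest S. lycopersicum values were from block 2. S. habrochaites was higher by 0.86 ± 0.20 (adjusted p = 0.0013; 1.81-fold) and S. pennellii by 0.82 ± 0.20 (adjusted p = 0.0015; 1.77-fold), both under the log2 limit of 1. Within blocks 1 and 2 the differences were 0.91 and 0.93 for S. habrochaites and 0.92 and 0.92 for S. pennellii. S. pimpinellifolium, at 10789, 13165 and 22826 RPKM, overlapped S. lycopersicum when blocks were pooled (log2 0.24, adjusted p = 0.50). Within block 1 it did not overlap, at 10789 to 13165 RPKM against 8781 to 10295 RPKM in S. lycopersicum. Within block 2 it did, at 14261 to 22826 against 14359 to 17473 RPKM. Over 8 alternative limma fits this difference was 0.23 to 0.46, with adjusted p from 0.0072 to 0.65, and 0 were called.

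Solyc02g085950 spread widely within each species. S. pimpinellifolium had 48184, 58874 and 133020 RPKM (lowest, median and highest), S. habrochaites had 60981, 103482 and 173320 RPKM and S. pennellii had 28320, 62028 and 116242 RPKM, against 52342, 109706 and 144023 RPKM in S. lycopersicum. The ranges overlapped in every pair of species. The log2 differences from S. lycopersicum were −0.32 ± 0.33 for S. pimpinellifolium, 0.30 ± 0.33 for S. habrochaites and −0.57 ± 0.33 for S. pennellii (SE; adjusted p = 0.60, 0.52 and 0.17). Their 95% intervals ran from −0.99 to 0.35, from −0.37 to 0.96 and from −1.24 to 0.10. With run block as a term the differences were −0.15, 0.41 and −0.41 (adjusted p = 0.48, 0.034 and 0.018), all under the log2 limit of 1.

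Counted over the 4 models, 0 were called in S. pimpinellifolium against S. lycopersicum, where 4.65% of all genes were called, and 0 in S. habrochaites, where 13.3% were. The unadjusted counts under 0.05 over all genes were 5182 and 8454. In S. pennellii 1 was called, Solyc03g034200, with a background of 18.7%. The medians of the 4 models were 0.15, 0.56 and −0.26 (log2), beside −0.00, −0.14 and 0.10 over all genes. All 3 comparisons use the same 7 libraries of S. lycopersicum. The S. pennellii median includes Solyc03g034200, at −5.20, and is not evidence on the family. The other models there were at −0.57 (Solyc02g085950), 0.05 (Solyc03g034220) and 0.82 (Solyc02g063150).

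Among the wild species, 1 of 4 models was called in S. pennellii against S. habrochaites (20.8% of all genes), 1 against S. pimpinellifolium (20.4%), again Solyc03g034200, and 0 in S. habrochaites against S. pimpinellifolium (10.9%, with 7455 genes under an unadjusted 0.05). S. pennellii was lower than S. habrochaites by −0.78 ± 0.15 for Solyc03g034220 (adjusted p = 1.4e-04) and by −0.87 ± 0.33 for Solyc02g085950 (adjusted p = 0.030), while Solyc02g063150 differed by −0.05, with a 95% interval from −0.46 to 0.36. Median-ratio scaling of the libraries moved the median of all genes in this comparison by −0.19. It gave −1.01 for Solyc03g034220 and −1.10 for Solyc02g085950, and both were then called.

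The share of each copy in the summed RPKM of the family was compared next. Solyc02g063150 made up 11.7%, 13.3% and 14.5% (lowest, median and highest) for S. pimpinellifolium, 11.3%, 12.8% and 15.01% for S. habrochaites and 16.98%, 18.7% and 24.6% for S. pennellii, against 9.12%, 9.62% and 11.3% in S. lycopersicum. Every S. pimpinellifolium and every S. pennellii library was above every S. lycopersicum library, and S. pennellii was above all 21 other seedling libraries. The mean was 12.98% ± 0.97 for S. pimpinellifolium, 13.01% ± 1.26 for S. habrochaites and 20.5% ± 3.16 for S. pennellii, against 9.95% ± 0.88 in S. lycopersicum (SD, n = 7; exact permutation test, two-sided, p = 0.000583, 0.00117 and 0.000583, where 0.000583 is the smallest that 7 against 7 allows). Against S. lycopersicum, block 1 gave +2.93, +3.23 and +11.8 percentage points and block 2 gave +2.69, +2.26 and +8.49 points in the same order of species. S. pennellii also exceeded S. habrochaites by 7.51 points and S. pimpinellifolium by 7.55 points (exact permutation p = 0.000583 each). S. habrochaites and S. pimpinellifolium differed by 0.04 points (exact permutation p = 0.95).

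Solyc02g085950 held the largest share of the summed RPKM in every seedling library, and its share was lower in the wild species. Its mean share was 62.3% ± 4.43 for S. pimpinellifolium, 61.9% ± 4.10 for S. habrochaites and 55.5% ± 8.39 for S. pennellii, against 70.2% ± 4.60 in S. lycopersicum (SD, n = 7; exact permutation p = 0.0093, 0.0076 and 0.00175). The ranges overlapped in each pair. The share also differed between run blocks, and in S. lycopersicum it was 73.7% ± 1.33 in the 4 libraries of block 2 and 65.5% ± 1.85 in the 3 of block 1. Within block 1 the wild species were lower by −6.61, −7.17 and −15.4 points, and within block 2 by −6.84, −7.57 and −11.0 points. In reads, Solyc02g085950 took 39.8% ± 4.60, 39.4% ± 4.13 and 33.7% ± 7.45 of the family in these wild species, against 48.6% ± 5.45 in S. lycopersicum. The differences in reads were −8.74, −9.17 and −14.9 points. By reads Solyc03g034220 had 39.2%, 39.7% and 35.6% in the wild species, against 34.0% in S. lycopersicum. Solyc02g085950 led by reads in 3 of 7 libraries of S. pimpinellifolium, 3 of 7 of S. habrochaites and 4 of 7 of S. pennellii, against 7 of 7 of S. lycopersicum, and Solyc03g034220 led in the rest. The lead also followed run block, and Solyc02g085950 led in every block 2 library of every species. In block 1 it led in every S. lycopersicum library, but among the wild species only in an S. pennellii library, with 37.4%.

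Solyc03g034220 made up 24.7% ± 3.49 of the summed RPKM for S. pimpinellifolium, 25.1% ± 2.98 for S. habrochaites and 24.005% ± 5.26 for S. pennellii, against 19.8% ± 3.75 in S. lycopersicum (SD, n = 7; exact permutation p = 0.033, 0.017 and 0.12). In reads the S. pimpinellifolium difference was 5.17 points with p = 0.052 by the same exact permutation test. In all, 24 share tests were made in seedlings, and their p-values are unadjusted. The shares of a library are parts of the same total, so these tests are not independent.

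**Figure D2:**
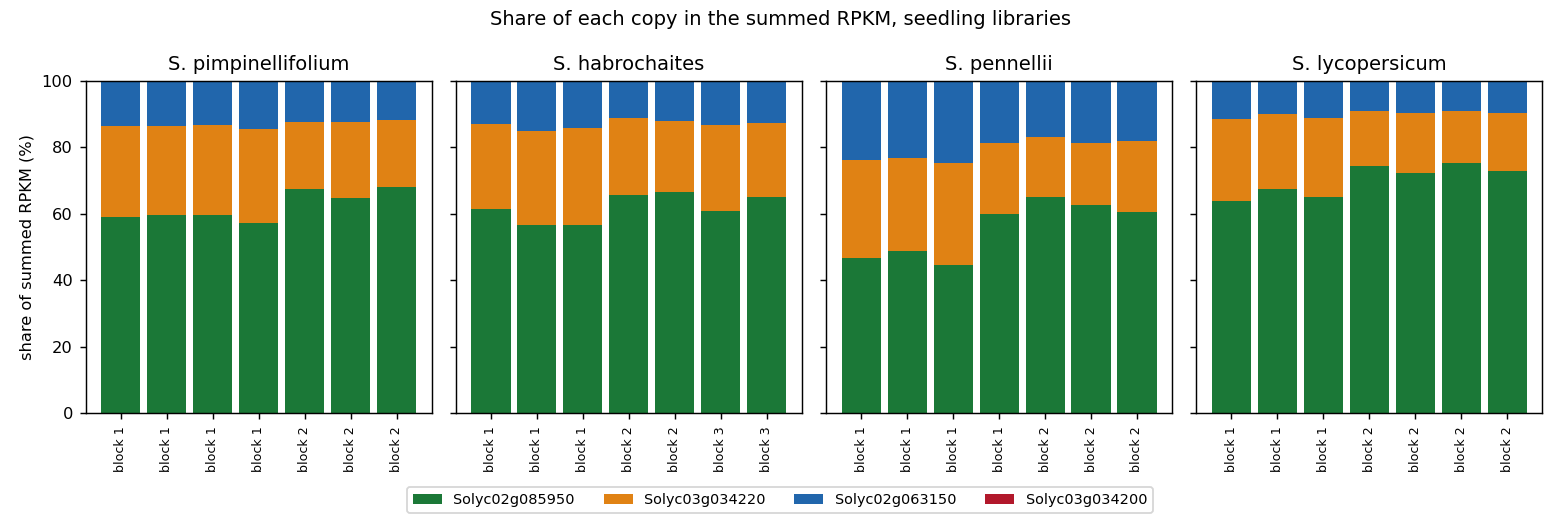
Share of each model in the summed RPKM (percent) in each of the 28 seedling libraries, ordered by run block within a species. Solyc02g063150 takes 16.98% to 24.6% in S. pennellii against 9.12% to 11.3% in S. lycopersicum, and Solyc02g085950 takes more in block 2 than in block 1 within each species.

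Across tissues of the factorial, 3 of the 4 models were high in seedling, leaf and vegetative meristem and low in stem and root. Solyc02g085950 had 48367 and 78343 RPKM in shaded and sunlit leaf of S. pennellii and 90143 and 74299 in those of S. lycopersicum. In root it had 233 and 101 RPKM in S. pennellii and 241 and 428 in S. lycopersicum, so leaf exceeded root 379-fold in S. pennellii and 246-fold in S. lycopersicum (ratio of means). The leaf to root ratio was 406-fold and 60.4-fold for Solyc02g063150, and 55.4-fold and 27.6-fold for Solyc03g034220, in the same order of species. Summed over the family, root took only 0.0495% and 0.0243% of reads in shaded and sunlit S. pennellii, and 0.0672% and 0.0891% in S. lycopersicum.

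Each tissue was tested against the mean of the 5 others, averaged over both species. In seedling, 3 of 4 models were called higher (9.22% of all genes were called), with log2 differences of 3.10 ± 0.27 for Solyc02g085950, 2.16 ± 0.25 for Solyc02g063150 and 1.99 ± 0.25 for Solyc03g034220 (SE). In leaf the same 3 were called higher (24.4%), at 3.09, 2.66 and 1.95 in that order of models. In vegetative meristem they were called higher again (15.9%), at 3.15, 2.82 and 2.14. In stem the 3 were called lower (18.9%), at −2.24, −1.79 and −1.26, and in root lower (29.7%), at −6.88, −6.16 and −4.39. Adjusted p-values of these 15 calls ran up to 0.0011. The calls of Solyc03g034220 in leaf and stem were lost after quantile normalization, and that in stem also without the shaded stem of S. lycopersicum. In inflorescence 0 of 4 were called (18.9%), with differences between −0.43 and 0.34, and limma gave 11302 genes under an unadjusted 0.05. There Solyc02g085950 was at −0.22 as deposited and at a called 1.70 after quantile normalization. Quantile normalization gives the top-ranked model of every library the same value. Solyc02g085950 ranked first in every seedling, leaf and meristem library and between 1 and 4 in inflorescence. Its 1.70 therefore follows from rank and is no evidence on direction. Solyc03g034200 was called in 0 of the 6 tissues. It was nearly unread in S. pennellii, so averaging over both species shrinks its tissue differences in S. lycopersicum. The count of 0 therefore cannot show an even level over tissues. The medians of the 4 models were 2.07, 2.30, 2.48, −1.53, 0.05 and −5.28 in seedling, leaf, meristem, stem, inflorescence and root, beside −0.09, −0.38, −0.14, −0.06, 0.22 and 0.24 over all genes.

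**Figure D3:**
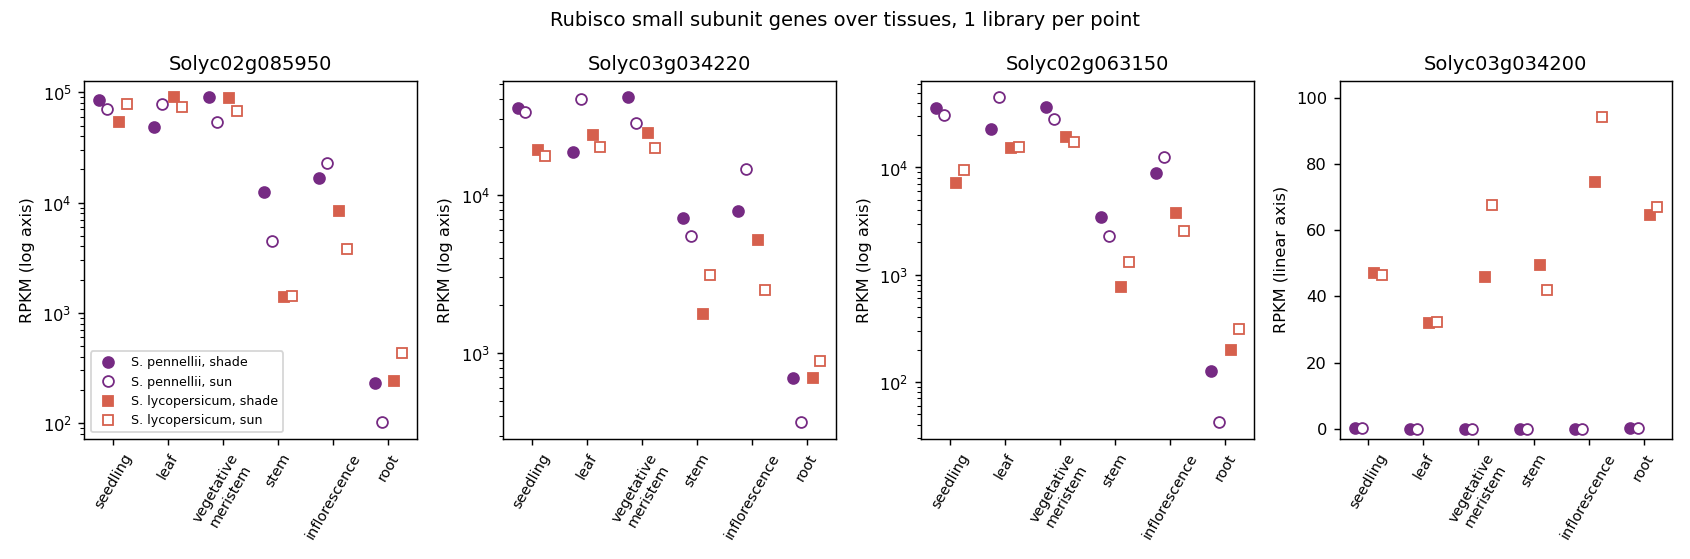
Level of each model (RPKM; log axes for 3 models, a linear axis for Solyc03g034200) in the 24 factorial libraries, 1 library per point, with filled symbols for shade and open ones for sun. Root lies lowest for 3 models, and Solyc03g034200 is at or near 0 in all 12 S. pennellii libraries and at 31.9 to 94.2 RPKM in S. lycopersicum.

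Averaged over the 6 tissues, S. pennellii was higher than S. lycopersicum by 0.89 ± 0.19 for Solyc02g063150 (adjusted p = 0.0018), by 0.70 ± 0.19 for Solyc03g034220 (0.0095) and by 0.47 ± 0.20 for Solyc02g085950 (0.086). None of these reached the log2 limit of 1, and 1 of 4 models was called, Solyc03g034200, where 10.6% of all genes were called. The median of the 4, which includes Solyc03g034200, was 0.58, beside −0.10 over all genes. The species difference was also tested for dependence on tissue, by an F test read on the adjusted p alone, which passed 8.46% of all genes, Solyc02g063150 (adjusted p = 0.015) and Solyc02g085950 (0.026) passed, while Solyc03g034220 (0.18) and Solyc03g034200 (0.20) did not.

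In inflorescence and stem the 3 models stood above S. lycopersicum in every S. pennellii library. In inflorescence Solyc02g085950 had 16715 and 22649 RPKM in shaded and sunlit S. pennellii, against 8408 and 3801 RPKM in S. lycopersicum. Solyc02g063150 had 8797 and 12429 against 3769 and 2560 RPKM, and Solyc03g034220 had 7860 and 14426 against 5169 and 2504 RPKM, in the same order. The species did not overlap for any of the 3 models. With 2 libraries per species this is weak, and the share of all genes without overlap was not counted. The 3 models did not overlap in root either, with S. pennellii lower there and the same limits. In shaded root the gap was 233.3 against 241.1 RPKM for Solyc02g085950 and 691.4 against 691.8 RPKM for Solyc03g034220. Neither was called in root (limma adjusted p = 0.21 and 0.43). All 4 models, Solyc03g034200 included, were called in inflorescence (8.65% of all genes). The log2 differences were 1.78 ± 0.50 for Solyc02g085950, 1.75 ± 0.46 for Solyc02g063150 and 1.57 ± 0.46 for Solyc03g034220 (limma adjusted p = 0.038, 0.027 and 0.048). These calls rested on single libraries: without the sunlit inflorescence of either species all 3 were lost, and Solyc03g034220 kept its call in 10 of 29 alternative fits, Solyc02g085950 in 20 and Solyc02g063150 in 27.

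In stem, Solyc02g085950 had 12579 and 4463 RPKM in shaded and sunlit S. pennellii, against 1395 and 1433 RPKM in S. lycopersicum. Solyc02g063150 had 3473 and 2302 against 769 and 1319 RPKM. Solyc03g034220 had 7112 and 5487 against 1761 and 3098 RPKM. The species did not overlap for any of them, with the same limit as in inflorescence. In stem 3 of 4 models were called (12.1%), Solyc03g034200 among them, with Solyc02g085950 at 2.41 ± 0.50 (adjusted p = 0.0055; 6.03-fold) and Solyc02g063150 at 1.49 ± 0.46 (0.046), while Solyc03g034220 at 1.42 ± 0.46 (0.058) was not. The call of Solyc02g085950 was lost without the shaded stem of S. pennellii or without that of S. lycopersicum, and Solyc02g063150 kept its call in 12 of 29 alternative fits.

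In seedling and root, Solyc02g063150 was the one of the 3 models that was called. In factorial seedlings it had 35602 and 30636 RPKM in shaded and sunlit S. pennellii, against 7157 and 9570 RPKM in S. lycopersicum, a 3.96-fold ratio of means. With Solyc03g034200, 2 of 4 models were called (10.7%), at 1.996 ± 0.46 for Solyc02g063150 (adjusted p = 0.012), a call that was lost without any of the 4 seedling libraries. Root ran the other way, with 126 and 41.8 RPKM in S. pennellii against 197 and 311 RPKM in S. lycopersicum. There 2 of 4 models were called (11.1%), with Solyc02g063150 lower by −1.75 ± 0.46 (adjusted p = 0.022), and the call was lost without the sunlit root of either species or after median-ratio scaling. The root values of Solyc02g063150 rest on 172 and 54 reads in S. pennellii and on 193 and 669 in S. lycopersicum.

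In leaf 1 of 4 models was called (9.52%) and in vegetative meristem 1 of 4 (5.68%), Solyc03g034200 in both. Solyc02g063150 had 22828 and 45133 RPKM in shaded and sunlit leaf of S. pennellii, against 15129 and 15502 RPKM in S. lycopersicum. It did not overlap between the species there, but its log2 difference of 1.07 had an adjusted p of 0.17. Solyc02g085950 differed by −0.41 in leaf and −0.16 in meristem, with 95% intervals from −1.48 to 0.66 and from −1.23 to 0.91. The medians of the 4 models were 0.58, −0.05, 0.24, 1.45, 1.66 and −1.41 from seedling to root in the order above, beside −0.14, 0.00, 0.00, −0.05, −0.24 and 0.00 over all genes. Each median includes Solyc03g034200, which was bound to be lower in S. pennellii, so these medians are not evidence on the family.

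**Figure D4:**
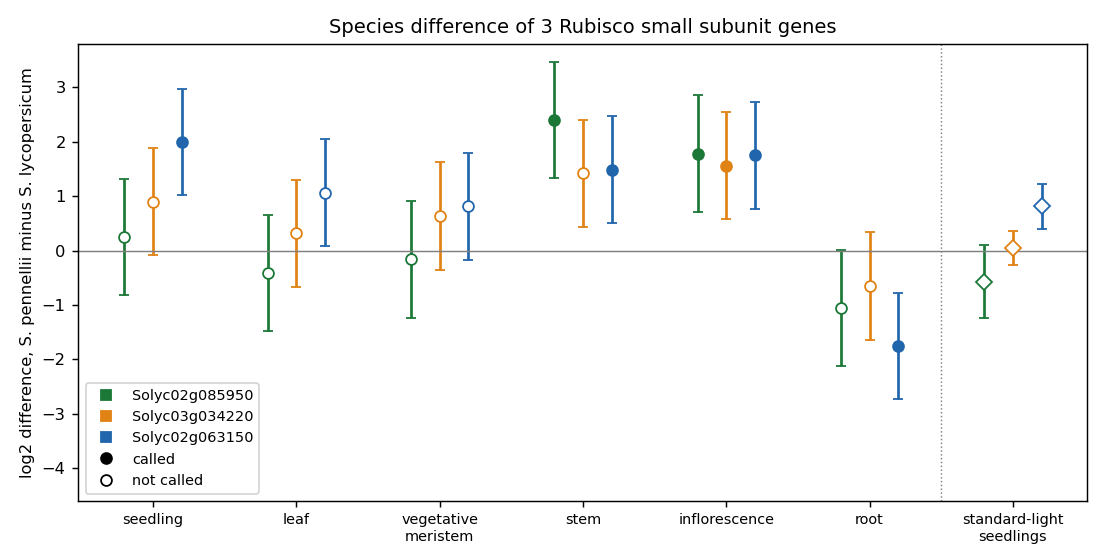
Difference of S. pennellii minus S. lycopersicum (log2 of RPKM + 1) for 3 models in each factorial tissue (circles, 2 libraries per species) and in the standard-light seedlings (diamonds, 7 per species), with 95% intervals; filled symbols are called. Solyc02g063150 runs from 1.996 in seedling to −1.75 in root.

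In the factorial the leading copy differed between tissues, and in many libraries between RPKM and reads. Solyc02g085950 held 48.0% to 54.8% of the summed RPKM in seedling, leaf and meristem of S. pennellii and 64.6% to 74.3% in those of S. lycopersicum. In reads it held 26.9% to 32.5% in these 6 libraries of S. pennellii, where another copy was above it in each, and 41.9% to 53.5% in those of S. lycopersicum, where it led in each. In sunlit leaf of S. pennellii, Solyc02g063150 had 38.9% of the reads, Solyc03g034220 had 34.2% and Solyc02g085950 had 26.9%. In root Solyc03g034220 led instead, with 65.8% and 71.7% in shaded and sunlit S. pennellii and 57.9% and 52.6% in S. lycopersicum. In reads, the root shares of Solyc03g034220 were 75.8% (95% Wilson interval 73.4% to 78.1%) of 1242 reads and 81.4% (78.0% to 84.3%) of 574 reads in S. pennellii, and 55.9% (53.1% to 58.7%) of 1208 reads and 54.6% (52.9% to 56.2%) of 3512 reads in S. lycopersicum. These intervals cover counting error only. The totals include Solyc03g034200, which took 20.4% and 15.97% of the family reads in shaded and sunlit S. lycopersicum root. In S. pennellii it had 1 read in each root library. Its reads lower the S. lycopersicum shares of the other copies, so the gap between species in these read shares is not one among the other copies alone. In the S. lycopersicum stem it also led, at 44.3% in shade and 52.6% in sun, and in the S. pennellii stem it led in sun, at 44.8%, and not in shade, at 30.7%. Solyc02g085950 led in the other 17 libraries by RPKM. By reads it led in 0 of 12 S. pennellii libraries, where Solyc03g034220 led in 7 and Solyc02g063150 in 5, and in 6 of 12 S. lycopersicum libraries, where Solyc03g034220 led in 5 and Solyc02g063150 in 1.

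Solyc02g063150 took 22.7% and 22.8% in shaded and sunlit factorial seedlings of S. pennellii, against 8.89% and 9.06% in S. lycopersicum. The same order held in leaf, at 25.4% and 27.6% against 11.7% and 14.1%, and in meristem, at 21.8% and 25.8% against 14.5% and 16.6%. In stem it turned, at 14.99% and 18.8% against 19.4% and 22.4%, and in root, at 11.95% and 8.25% against 16.5% and 18.3%. Over the 12 pairs of the same tissue and light its share averaged 20.98% ± 6.21 in S. pennellii and 16.8% ± 5.75 in S. lycopersicum, higher in 7 of 12 pairs (exact sign-flip permutation p = 0.13). Without root the difference was 6.47 points (exact permutation p = 0.031), and in reads 6.43 points (p = 0.041, same exact test). The test flips the shade and sun pairs of a tissue separately, but the direction mostly followed tissue. The p-values over these pairs, here and below, may therefore be too small. The shares of Solyc02g085950 and Solyc03g034220 differed by −5.52 and 2.42 points over the 12 pairs (exact permutation p = 0.17 and 0.35). Without the sunlit root of either species the p for Solyc02g063150 was 0.0488, and without the shaded stem of either species that for Solyc02g085950 was 0.0469, by the same exact permutation test over 11 pairs.

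**Figure D5:**
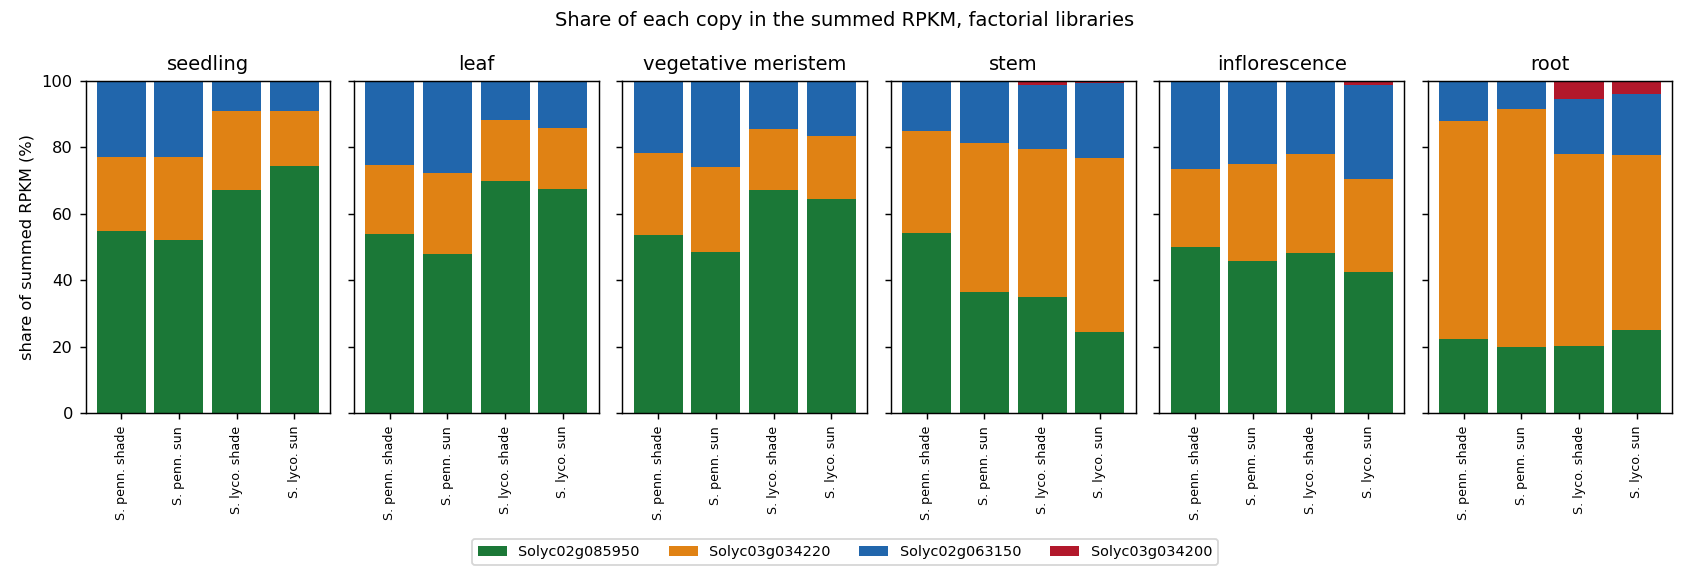
Share of each model in the summed RPKM (percent) in the 24 factorial libraries, by tissue, with shade and sun of S. pennellii left of those of S. lycopersicum. Solyc03g034220 takes 52.6% to 71.7% in root, and Solyc03g034200 is visible only in S. lycopersicum tissues where the other models are low.

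No level difference between light treatments passed the test. For shade against sun, 0 of 4 models were called in S. pennellii (0.00888% of all genes), 0 in S. lycopersicum (0%), 0 in the mean of both species (0%) and 0 in the difference between the species' responses (0%); limma gave 1398, 1239, 1050 and 1591 genes under an unadjusted 0.05. The largest difference was that of Solyc02g085950 in S. pennellii, at 0.43 ± 0.29 (adjusted p = 0.84), with a 95% interval from −0.19 to 1.05. For Solyc02g063150 the intervals ran from −0.36 to 0.78 in S. pennellii and from −0.77 to 0.37 in S. lycopersicum, and for Solyc03g034220 from −0.58 to 0.56 and from −0.48 to 0.66. Single tissues moved in opposite directions: Solyc03g034220 had 18669 RPKM in shaded against 39826 RPKM in sunlit leaf of S. pennellii, and 41089 against 28272 RPKM in its meristem. Per tissue, with 1 library a side, the ratio of shade to sun ran from 0.469-fold to 3.0-fold over the 3 models in S. pennellii and from 0.563-fold to 2.21-fold in S. lycopersicum. The medians of the 4 models were 0.12, −0.02, 0.02 and 0.26 in the 4 light contrasts, beside −0.05, 0.07, 0.01 and −0.13 over all genes.

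Shares of the copies were compared between light treatments over the 6 tissues. In S. pennellii, Solyc02g085950 averaged 48.1% ± 12.8 under shade and 41.8% ± 11.95 under sun (SD, n = 6 tissues), higher in shade in 6 of 6 tissues by a mean of 6.32 points (exact sign-flip permutation p = 0.03125, the smallest that 6 pairs allow). The gap ran from 2.22 to 17.9 points and was widest in stem, where the share was 54.3% in shade and 36.4% in sun. Solyc03g034220 averaged 31.3% ± 17.2 in shade and 36.8% ± 18.8 in sun, lower in shade in 6 of 6 tissues by a mean difference of −5.45 points (exact permutation p = 0.03125). In S. lycopersicum Solyc02g063150 was at 15.4% ± 4.74 in shade and 18.2% ± 6.76 in sun, lower in shade in 6 of 6 tissues by −2.74 points (exact permutation p = 0.03125). Solyc02g085950 was higher in shade in 4 of 6 tissues there (1.55 points, exact permutation p = 0.59), and whether the species' share responses differ was not tested. The p-values are unadjusted among 12 factorial share tests. The shares of a library are parts of the same total, so a rise in the share of a copy lowers the others. The opposite changes of Solyc02g085950 and Solyc03g034220 in S. pennellii are therefore not separate results.

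Solyc03g034200 was nearly unread in S. pennellii. In standard-light seedlings it had 32.5, 40.6 and 48.4 RPKM (lowest, median and highest) for S. pimpinellifolium and 25.3, 30.8 and 41.8 RPKM for S. habrochaites, against 27.4, 37.7 and 44.5 RPKM in S. lycopersicum. In S. pennellii it had 1 read in 7 libraries, with 6 libraries at 0, against 1330 reads in the 7 S. lycopersicum libraries. Pooled over libraries S. pennellii was 1152-fold lower (exact 95% counting interval 206 to 45527-fold). The fitted log2 difference was −5.20 with a pseudocount of 1 and −8.27 with one of 0.1, so its size follows the pseudocount. In the factorial it had 5 reads in 12 S. pennellii libraries, in seedling and root only, against 4094 reads in S. lycopersicum, and was 871-fold lower (exact 95% counting interval 373 to 2684-fold). In S. lycopersicum its highest values were 74.4 and 94.2 RPKM in shaded and sunlit inflorescence. Its share of the summed RPKM there was at most 0.0642% in seedling, leaf and meristem. It reached 5.40% and 3.94% in shaded and sunlit root, where the other 3 models were low. By reads, which are not divided by model length, it held 20.4% and 15.97% in shaded and sunlit root. Its read shares in shade and sun were 5.89% and 3.17% in stem and 2.31% and 5.29% in inflorescence. They were at most 0.408% in seedling, leaf and meristem. Whether its reads are missing in S. pennellii through expression or through sequence that does not match was not tested.

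Models whose pattern was most like that of the small subunit genes were found by Pearson's r on log2(RPKM + 1) over the 24 factorial libraries, which share tissues. Closest to the family total were Solyc08g013670.2.1 (r = 0.993; 60.2 to 6056 RPKM) and Solyc04g082010.1.1 (r = 0.991; 68.4 to 6782 RPKM). The same 2 models were the closest to Solyc02g085950 (r = 0.9901 and 0.987). Solyc04g082010.1.1 and Solyc06g005710.2.1 were closest to Solyc02g063150 (0.9905 and 0.988), and Solyc12g005630.1.1 and Solyc08g013670.2.1 to Solyc03g034220 (0.988 and 0.987). Solyc03g034200 was closest to other models, Solyc04g055060.1.1 and Solyc08g065310.2.1 (0.9948 and 0.9945), which were also at 0 in some libraries. Because it was nearly unread in S. pennellii, any model read in S. lycopersicum alone would have a high r with it. These 2 values therefore do not show a shared pattern over tissues. Between 33 and 75 models had an r over 0.95 with a copy or with the total.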

How the data were processed

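RNA-seq libraries of 28 seedling samples and 24 factorial samples were analysed. Per the file headers and values, the authors deposited 1 table of RPKM values for 28298 gene models. The submitters' processing notes name BWA 0.5.7 and CASAVA 1.4, and the reference is not given in the sources used here. Whole reads and model lengths were recovered from the RPKM steps (100% of positive values whole within 0.02 reads; totals 1477052 to 5556059); Wilson and exact intervals at 95% cover counting error only. The 4 models and all lists were chosen with earlier results of these data known. None of the 28298 IDs matched the RefSeq gene table, so no names, coordinates or sequences were added.

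log2(RPKM + 1) was fitted with limma 3.58.1 (trended, robust) in R 4.3.3, separately for seedlings (RPKM of at least 1 in at least 7 libraries) and the factorial (at least 2), with tissue by species means plus a light effect per species in the factorial, which has 1 library per combination. Adjusted p-values are Benjamini-Hochberg over all genes tested. Shares were tested by exact permutation (scipy 1.17.1), two-sided. Alike models were the 2 with the highest r. Same-group seedling libraries differed beyond counting noise in all 84 pairs (chi-square per gene 1.82 to 16.5). Scripts were tested on simulated data. Alternatives were another pseudocount, no filter, median-ratio and quantile scaling, voom on recovered reads, run blocks, shares of reads, roots left out and each factorial library left out; the sum over 3 models and the block contrasts were added after seeing the data.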

Additional observations from a re-analysis of the deposited data

Results flagged for a closer look

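In standard-light seedlings, 36 groups of library values were examined for 1 library far from the rest, and 2 such values were found, both Solyc03g034200 in S. pennellii. A single library had 0.261 RPKM, from 1 read, where the other 6 were at 0, and in the same library its share of the family was 0.000252%. About 1 in 20 groups is picked out by chance in this way, but that rate does not apply to these 2 values. With the other 6 libraries at 0, any 1 read is picked out, and the share is that same read.

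The difference of S. pennellii minus S. lycopersicum depended on tissue for Solyc02g063150 (F test of species by tissue in limma, adjusted p = 0.0149) and for Solyc02g085950 (adjusted p = 0.0263). For Solyc02g063150 it ran from 1.996 in seedling to −1.75 in root, and for Solyc02g085950 from 2.41 in stem to −1.06 in root. With 1 library per tissue, species and light, each of these values rests on 2 libraries per species.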

How the results depend on the processing

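Of 2172 alternative log2 differences of the 4 models, 2015 kept direction and call, 60 lost the call, 17 gained one, 79 uncalled ones changed sign and 1 called one did: Solyc02g085950 in inflorescence against the other tissues was 1.70 after quantile normalization (adjusted p = 7.6e-05). Quantile normalization gives the first and second genes of every library the same values by construction. Solyc02g085950 and Solyc03g034220 held these places in every standard-light seedling library. In the factorial, Solyc02g085950 was first in every seedling, leaf and meristem library, so its 1.70 follows from rank. Other scaling moved the median of all genes by 0.12 and 0.17 (median-ratio and quantile) in S. habrochaites against S. lycopersicum, by −0.19 and −0.30 in S. pennellii against S. habrochaites, by −0.14 (quantile) in S. pennellii against S. lycopersicum, by 0.32 and 0.28 in leaf, −0.27 and −0.22 in inflorescence and −0.22 and −0.23 in root against other tissues, and by 0.20 and 0.24 between the species in inflorescence.

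After median-ratio scaling the called models numbered 1 in S. habrochaites against S. lycopersicum (also 1 in run block 2), 3 in S. pennellii against S. habrochaites, and between factorial species 2 in the mean of tissues, 2 in inflorescence and 1 in root. After quantile normalization they numbered 1 in seedling and 2 in inflorescence between species, and 2 in inflorescence against other tissues. Leaving out 1 factorial library at a time gave 1 to 2 called models in the mean, 1 to 2 in seedling, 1 to 4 in stem, 1 to 4 in inflorescence and 1 to 2 in root.

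The seedling share differences listed next, in percentage points, either changed sign or had a p that crossed 0.05. By reads, Solyc03g034220 in S. pimpinellifolium minus S. lycopersicum was 5.17 (exact permutation p = 0.052), and Solyc02g063150 in S. habrochaites minus S. pimpinellifolium was −0.0214. In S. habrochaites minus S. lycopersicum, blocks 1 and 2 gave 3.23 and 2.26 for Solyc02g063150, −7.17 and −7.57 for Solyc02g085950 and 3.96 and 5.32 for Solyc03g034220, where so few libraries cannot go below an exact p of 0.1 and 0.0667. For Solyc02g063150, S. pennellii minus S. habrochaites was 8.57 in block 1 and 6.22 in block 2, S. pennellii minus S. pimpinellifolium was 5.80 in block 2, and S. habrochaites minus S. pimpinellifolium was −0.428 in block 2. For Solyc02g085950, S. pennellii minus S. lycopersicum was −15.4 in block 1 (exact permutation p = 0.0571, the smallest that 4 against 3 libraries allow). For Solyc03g034220, S. pennellii minus S. pimpinellifolium was 0.0196 in block 1. For Solyc03g034200, block 2 gave −0.0105 in S. pennellii minus S. habrochaites and −0.0246 in S. pennellii minus S. pimpinellifolium, and blocks 1 and 2 gave −0.0181 and −0.0141 in S. habrochaites minus S. pimpinellifolium.

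In the factorial, the share of Solyc02g063150 in S. pennellii minus S. lycopersicum was 6.43 by reads and 6.47 without root, and 3.30 to 5.47 with 1 library left out; that of Solyc02g085950 was −7.76 to −4.01. Shade minus sun in S. pennellii was 0.120 by reads for Solyc02g063150; without root it was 7.14 for Solyc02g085950, −5.36 for Solyc03g034220 and 0 for Solyc03g034200, and with 1 tissue left out these ran over 4.01 to 7.14, −6.31 to −3.72 and −0.0043 to 0. In S. lycopersicum, without root, it was −2.93 for Solyc02g063150 and −0.0218 for Solyc03g034200, and with 1 tissue left out it was −3.25 to −1.90 for Solyc02g063150, −0.301 to 3.29 for Solyc02g085950, −0.300 to 2.82 for Solyc03g034220 and −0.0218 to 0.395 for Solyc03g034200. A test over 5 pairs cannot go below an exact p of 0.0625. The causes were not tested. Fitted log2 differences of Solyc03g034200 in S. pennellii follow the pseudocount.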
